A study of Homo sapiens with 12 samples.

Results

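H1650 is an established human lung adenocarcinoma line, and its response to a short hairpin RNA against MARK2 was read on 4 arrays, 2 from cells transduced with the hairpin lentivirus and 2 from cells transduced with the empty pLKO vector. Genes were divided by whether all of their probe sets, each a group of short probes read as one value, changed in the same direction between knockdown and control. Only probe sets with a single gene symbol and a mean log2 signal of at least 5 over the 4 arrays were used. Of 15750 genes measured in this way, 9681 had 2 or more probe sets. In 3057 of these every probe set was higher in the knockdown arrays, in 1294 every probe set was lower, and in 5330 the probe sets disagreed. The remaining 6069 genes had 1 probe set, so agreement could not be read for them. The division was read from the same contrast as the changes described here, so it is a description of these arrays. The replicates are described as biological replicates in the series' design text, and p-values use a spread estimated over the 12 arrays of all lines. The standard deviation of the difference between replicates was 0.25 in the knockdown and 0.21 in the control group of H1650. In the groups of the other lines it was 0.14 to 0.18, so the p-values and SEs for H1650 rest partly on closer replicates. The hairpin sequence, the number of hairpins and the time after transduction are not given in the sources used here, and all arrays come from transduced cells without a drug treatment named in the labels. The whole series holds 12 arrays: the same pair of conditions was also run in the lung cancer lines H1693 and H1993, with 2 arrays per group.

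MARK2, a serine/threonine kinase, loosens proteins such as tau and MAP2 from microtubules by phosphorylating them, and it helps to set up cell polarity together with the PAR proteins. The arrays read RNA after reverse transcription primed at the poly(A) tail, so the labelled product starts at the 3' end of a transcript. In broken RNA, or where copying stops early, probes near the 5' end lose signal while those near the 3' end keep it. The manufacturer's control probe sets for long-lived, abundant transcripts such as GAPDH, a glycolytic enzyme, and ACTB, cytoplasmic actin, are placed at the 5' end, the middle and the 3' end for this reason.

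The 3' and 5' ends of both control transcripts were read very differently in the H1650 groups. The 3' minus 5' signal of GAPDH (log2) was 6.87 and 6.77 in knockdown replicates 1 and 2, and 2.28 and 3.07 in control replicates 1 and 2. For ACTB it was 7.15 and 6.97 in the knockdown arrays and 2.52 and 3.28 in the control arrays. The groups did not overlap for either gene, and in both genes knockdown replicate 1 and control replicate 2 had the larger difference of their group. In the other 8 arrays it lay between -0.12 and 0.02 for GAPDH and between 0.28 and 0.57 for ACTB. The 3' set of GAPDH itself was level, at 14.94 and 14.90 in the knockdown and 14.93 and 15.01 in the control arrays. Its middle set was at 10.87 and 11.31 against 14.52 and 14.39, and its 5' set at 8.07 and 8.13 against 12.65 and 11.93. Read at different ends, the same transcript was therefore either level or far lower in the knockdown arrays. RNA integrity and hairpin cannot be told apart in H1650, and every change given here carries that limit.

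**Figure D1:**
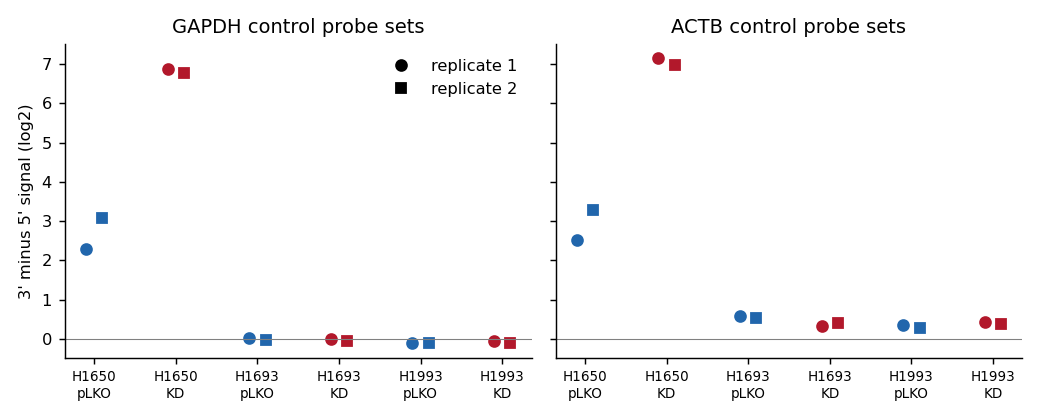
The 3' minus 5' signal of the GAPDH (left) and ACTB (right) control probe sets (log2, vertical axis) is plotted for each of the 12 arrays by group, with circles for replicate 1 and squares for replicate 2, blue for pLKO and red for knockdown. The H1650 knockdown arrays sit between 6.77 and 7.15, the H1650 control arrays between 2.28 and 3.28, and the other 8 arrays between -0.12 and 0.57.

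The labels of the targeted gene were checked next. MARK2 (chromosome 11, 63839110 to 63911020, GRCh38.p14) has 1 probe set above the signal minimum, which read 5.92 and 5.37 in the knockdown and 6.07 and 5.80 in the control arrays of H1650. The groups overlapped, and the change of -0.29 (log2, SE 0.16) did not pass the threshold (limma adjusted p = 0.143). Without knockdown replicate 1 it was -0.56 and passed (limma adjusted p = 0.00502), and without knockdown replicate 2 it was -0.019 (limma adjusted p = 0.913). With the replicate number as a block it passed (limma adjusted p = 0.0423). The second MARK2 set lay below the minimum, at 4.51 and 4.55 in the knockdown and 4.62 and 4.38 in the control arrays. The 2 sets changed by -1.27 and -0.58 in H1693 and by -2.35 and -2.12 in H1993. The change in H1650 was smaller in size than the mean change of the brighter set in the other lines, by 1.52 (limma adjusted p for the difference = 0.000104). In the H1650 control arrays both sets were near the minimum of 5, where differences are understated, so these arrays do not measure how far MARK2 was lowered in H1650.

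The other 3 MARK kinases gave no call in H1650. MARK1 read 6.24 and 6.26 in the knockdown against 6.03 and 6.19 in the control arrays (change 0.14, limma adjusted p = 0.203), and MARK4 changed by 0.17 (limma adjusted p = 0.185). With each array centred on its median, which adds to every change, MARK1 changed by 0.25 and MARK4 by 0.27, and both passed. The probe sets of MARK3 disagreed, with changes from -0.14 to 0.33.

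Across H1650, 11417 probe sets were higher at an adjusted p under 0.05 (30.9% of 36950) and 8183 were lower (22.1%). Counting only genes whose every probe set was called in one direction, 1002 genes rose (10.4% of 9681) and 501 fell (5.18%). Where the probe sets agreed in direction and the gene mean was called, 2209 genes were higher (22.8%) and 1040 lower (10.7%). For H1650, "called" below means this rule unless every probe set or a gene with 1 probe set is mentioned. A gene called in H1693 or H1993 is one whose gene mean passed, whatever the number or agreement of its probe sets. Of the 1002 genes with every probe set called higher, 1001 had both knockdown arrays above both control arrays in every set. All 501 called lower had them below. The calls were made on the same arrays, so this separation is no added support. The falls were larger: the median change was -0.97 among genes with every set called lower and 0.64 among those with every set called higher, and 108 genes fell at least 2-fold in every probe set against 55 that rose as much. Of the 6069 genes with 1 probe set, 1910 were called higher and 902 lower. At 3 or more probe sets per gene, 373 rose and 204 fell in every set. With only the H1650 arrays in the fit, 693 genes rose and 357 fell in every set. After each array was centred on the median of its tested probe sets, the median change of all genes moved from 0.09 to 0.20, and the genes with every set called became 1495 higher and 388 lower (3193 and 719 by the gene mean). Of the genes with every set called, 996 that rose and 495 that fell have at least 2 probe sets that differ by more than 0.1 on some array. Sets with a constant offset also meet this rule, so it does not show that the change was read separately.

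Among the 12 largest agreed rises, IFI44L, IFI16 and IFIH1 are known as interferon-responsive genes. IFI44L (chromosome 1, 78620448 to 78646145), an interferon-induced gene, has 3 probe sets that rose by 2.29 to 3.01. Its gene mean was 9.50 and 9.55 in the knockdown and 6.80 and 6.88 in the control arrays, which is a change of 2.68 (SE 0.15, limma adjusted p = 2.77e-07). The mean change was 1.63 in H1993 and 0.20 in H1693, where it did not pass (limma adjusted p = 0.33).

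IFI16 (chromosome 1, 158999976 to 159055151), a sensor of DNA in the nucleus and cytosol, was at 10.99 and 10.96 in the knockdown and 8.85 and 9.26 in the control arrays, a change of 1.92 (SE 0.13). Its 2 probe sets moved together on every array, so they add little to each other. In H1693 and H1993 the gene was between 3.73 and 4.11, near background. IFIH1, which encodes the cytosolic sensor of double-stranded RNA MDA5, was at 9.51 in both knockdown arrays against 7.60 and 7.93 (change 1.75, SE 0.12). It changed by 0.83 in H1993 and by -0.32 in H1693 (limma adjusted p = 0.0764).

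The other genes among the 12 largest agreed rises have varied roles. NFE2L3, a bZIP transcription factor, was at 9.33 and 9.23 in the knockdown and 6.98 and 7.55 in the control arrays, a change of 2.01. SPRR2D, a cornified envelope protein of squamous epithelium, was at 8.69 and 8.83 against 6.96 and 6.87 (1.84), and it also rose in H1993 (1.65). ODAPH changed by 2.11 and BPGM, an enzyme that makes 2,3-bisphosphoglycerate, by 1.56. ACSL6, a long-chain acyl-CoA synthetase, went from 4.58 and 4.49 to 5.78 and 6.32. Its control arrays lay below 5, so ACSL6 reached the signal minimum only through its knockdown arrays, and its place here follows partly from that. DPY19L1 changed by 1.46, ANKRA2 by 1.58 and RBM11, an RNA-binding protein, by 1.52. The smallest change among a gene's probe sets set the order: RBM11 was last inside at 1.43, and C16orf87 and IL15 stood just outside at 1.39. 

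KLRC3, a member of the killer lectin-like receptor family, rose in every line. Its gene mean was 8.33 and 8.32 in the knockdown and 6.39 and 6.59 in the control arrays of H1650, a change of 1.83 (SE 0.08, limma adjusted p = 6.74e-08), and its 4 probe sets changed by 1.50 to 2.03. The change was 1.60 in H1693 and 1.93 in H1993, and the difference between H1650 and the mean of the others was 0.07 (limma adjusted p = 0.587). KLRC genes are close paralogs, so the probes may read a relative.

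The largest agreed falls were larger in size than the rises. ERI3 (chromosome 1, 44221070 to 44355279), an exonuclease family member, was at 6.15 and 6.60 in the knockdown and 9.76 and 9.67 in the control arrays, which is a change of -3.34 (SE 0.13, limma adjusted p = 4.24e-08). SNHG29 (chromosome 17, 16438987 to 16470648), a small nucleolar RNA host gene, was at 9.58 and 9.77 against 13.04 and 12.94 (change -3.31, SE 0.08). STIP1, a co-chaperone that links Hsp70 and Hsp90, was at 5.93 and 6.19 against 9.78 and 9.47 (change -3.57). Non-overlapping groups were a condition for being ranked here. In the other lines the gene means of these 3 genes changed by between -0.60 and 0.18, with STIP1 called lower in both.

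The rest of the 12 largest agreed falls ran from -2.98 to -2.24 in the gene mean. PHB2, a mitochondrial prohibitin, was at 8.85 and 9.02 in the knockdown and 11.86 and 11.71 in the control arrays, and its 3 probe sets changed by -4.15 to -2.17, so sets that agreed in direction still differed in size. AKAP8L changed by -2.98, TRIM29 by -2.91, GPAA1, a subunit of the GPI transamidase, by -2.90, and MAD1L1, a spindle checkpoint protein, by -2.62. GET3, which delivers tail-anchored proteins to the endoplasmic reticulum, changed by -2.50, EEF1A2 by -2.47, CRABP2, a retinoic acid binding protein, by -2.43 and IFRD2 by -2.24. MAD1L1 had the widest spread within the knockdown group, at 4.92 and 5.98 against 8.30 and 7.86. EEF1A2 and CRABP2 changed in the opposite direction in H1993, by 1.83 and 1.54. In H1693 CRABP2 fell as in H1650, by -1.33, and EEF1A2 changed by -0.35 (limma adjusted p = 0.115). CRABP2 was last inside by its smallest probe-set change, -2.12, and CDC42EP1 stood just outside at -2.08.

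**Figure D2:**
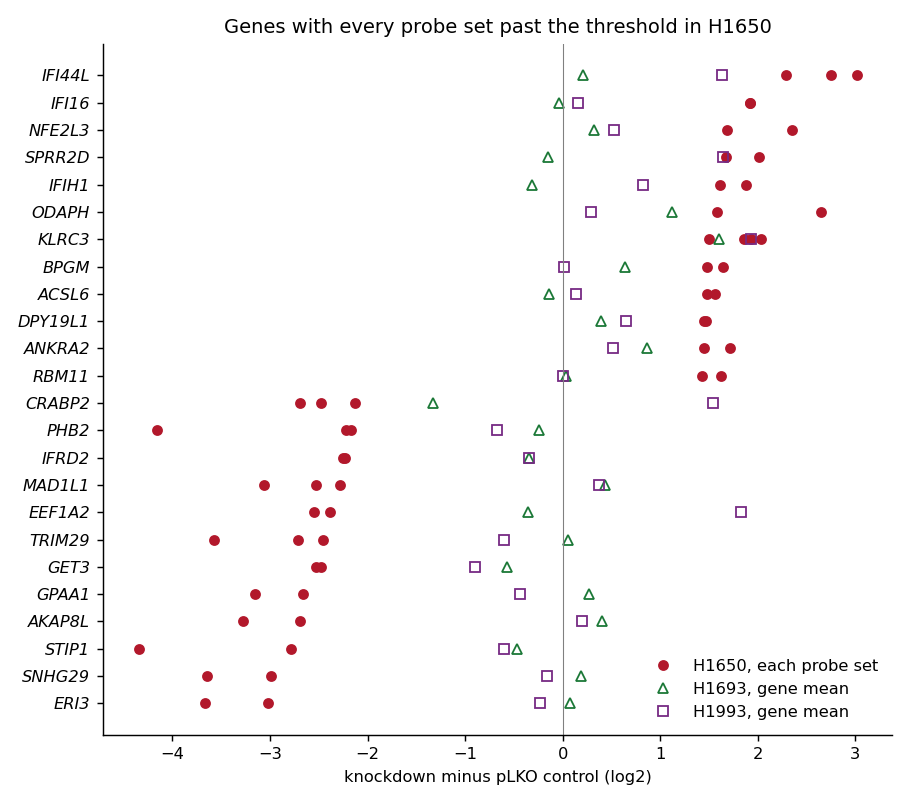
Knockdown minus control change (log2, horizontal axis) is plotted for the 12 genes with the largest agreed rises and the 12 with the largest agreed falls in H1650, with a red point for each probe set in H1650, a green triangle for the gene mean in H1693 and a purple square for that in H1993. The H1650 points of the falling genes lie at -2.12 or below, and KLRC3 is the rising gene at which all 3 lines meet, between 1.50 and 2.03.

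The genes whose probe sets disagreed show how far a single gene could be split on these arrays. ATP5F1A, the alpha subunit of the mitochondrial ATP synthase, has 4 probe sets. One was at 6.92 and 7.18 in the knockdown and 12.11 and 11.93 in the control arrays, a change of -4.97, while another was at 13.25 and 13.10 against 12.71 and 12.90, a change of 0.37. In H1693 and H1993 the 4 sets changed by between -0.20 and 0.01. EEF1A1, the translation elongation factor, was split in the same manner: a set at 5.75 and 6.17 against 10.83 and 10.20 changed by -4.56, a set at 8.92 and 8.97 against 8.18 and 8.34 by 0.68, and the brightest set by 0.01.

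HSPA5, the endoplasmic reticulum chaperone BiP, had 6 sets with changes from -4.87 to 0.36, and its set at 13.47 and 13.50 against 13.48 and 13.52 was level. HIF1A, the oxygen-regulated transcription factor, had 8 sets from -4.78 to 0.36. STARD7 ran from -4.85 to 0.30 and F3, tissue factor, from -4.38 to 0.58. In each of HIF1A, STARD7 and F3 the brightest probe set rose and passed, by 0.36, 0.30 and 0.58, while the gene mean fell by 1.56, 1.46 and 1.93. For F3 all 3 sets rose in both other lines, by 0.43 to 0.75. For these genes the direction in H1650 thus depended on the probe set read.

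This disagreement was common in H1650. At least 1 probe set was called higher and at least 1 lower in 2094 of its 9681 genes with several sets (21.6%), against 147 genes (1.55%) in H1693 and 143 (1.51%) in H1993. The highest and lowest probe-set changes of a gene differed by a median of 0.61 in H1650, 0.22 in H1693 and 0.23 in H1993. A gap of more than 2 was seen in 878 genes (9.07%) in H1650, in 5 genes in H1693 and in 10 in H1993. The share of genes with disagreeing sets rose with the number of sets, from 37.6% at 2 sets to 86.4% at 6 or more, so agreement is a weaker demand on a gene with 2 sets than on one with many.

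**Figure D3:**
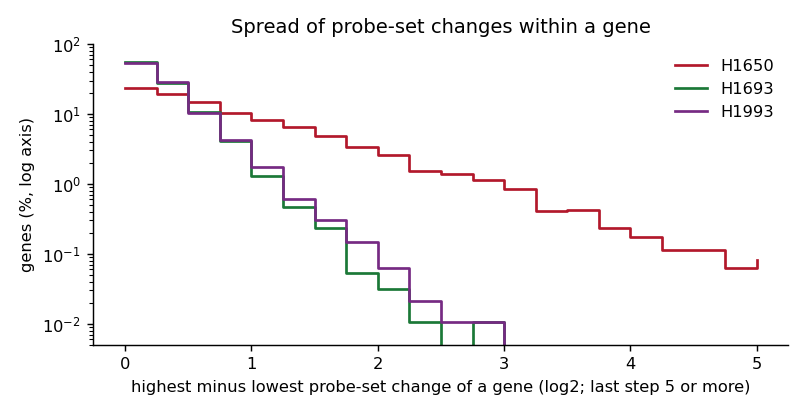
The share of genes (percent, logarithmic vertical axis) is plotted against the gap between the highest and lowest probe-set change of the gene (log2, horizontal axis; the last step collects 5 or more) for H1650 in red, H1693 in green and H1993 in purple. H1650 has the smallest share at gaps under 0.5 and the largest from 0.5 upwards. A gap of 2 is exceeded by 9.07% of H1650 genes, against 5 genes in H1693 and 10 in H1993.

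The 2 arrays within each group also differed for these genes. Control replicate 2 had the larger 3' minus 5' difference of the control pair. It read lower than control replicate 1 in 377 of the 501 genes with every set called lower (75.2%), in 123 of the 1002 called higher (12.3%) and in 48.4% of all genes with several sets. Knockdown replicate 2, with the smaller 3' minus 5' difference of its pair, was below knockdown replicate 1 in 22.4% of the falling and 63.6% of the rising genes, and in 46.9% of all. Each of these comparisons rests on 1 pair of arrays and on genes chosen from the same arrays. The falling genes also span less of the genome, with a median of 17115.5 bases against 41506.5 for the rising and 33889 for all genes with several sets. The part of these properties in the changes was not tested. Where each probe set lies on its transcript was not analysed here.

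In the other lines the control transcripts were read evenly, and the direction of change there was not used to choose the H1650 genes. The called shares there use the gene mean alone. They are not independent of the choice of H1650 genes, because the fit estimated the variance of a gene over the arrays of all lines. A gene with a low variance is more easily called in every line. Shares above those of all genes can therefore not be read as separate support, while higher and lower calls within a line can be compared. Of the genes with every set called higher in H1650, 28.4% were called higher and 15.3% lower in H1693, and 32.3% and 13.0% in H1993. Of all genes with several sets, 20.2% were called higher and 17.4% lower in H1693, and 19.6% and 18.4% in H1993. Over all 15750 genes tested the shares were 17.1% and 16.1% in H1693, and 17.3% and 16.2% in H1993. Of the genes with every set called lower in H1650, 27.1% were called lower and 17.4% higher in H1693, and 31.1% and 15% in H1993. In both other lines at once, 174 of the 1002 rising genes were higher (17.4%) and 56 lower (5.59%), and 92 of the 501 falling genes were lower (18.4%) and 25 higher (4.99%). Of all genes with several sets, 8.96% were higher and 8.61% lower in both. Most agreed changes in H1650 were therefore not called in the same direction in both other lines. Across the rising genes the size of the change in H1650 correlated with that in H1693 at r = 0.33 and in H1993 at r = 0.40, and across the falling genes at r = 0.00 and r = 0.01, as descriptions over genes, which are not independent.

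The rises called in all 3 lines with the largest smallest change were KLRC3, PROS1, LAMP3, IFI44, GBP2 and LURAP1L. LAMP3, a lysosomal membrane protein, was at 9.11 and 9.03 in the knockdown and 7.34 and 7.37 in the control arrays of H1650, a change of 1.72 (SE 0.06), with 2.22 in H1693 and 1.01 in H1993. PROS1, the anticoagulant protein S, was at 7.13 and 7.21 against 5.95 in both control arrays, a change of 1.22, with 1.11 and 1.28 in the other lines. Neither differed from the mean of the other lines beyond the threshold (limma adjusted p = 0.28 for LAMP3 and 0.843 for PROS1). IFI44 changed by 1.44, 1.43 and 1.01 in H1650, H1693 and H1993, GBP2, an interferon-induced GTPase, by 0.95, 1.92 and 1.40, and LURAP1L by 1.20, 1.27 and 0.92.

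The falls called in all 3 lines were led by PRPS2, TAF10, FOXM1, TOP2A, CRLF3 and GTSE1. FOXM1, a transcription factor for mitotic genes, was at 7.45 and 7.42 in the knockdown and 9.14 and 8.93 in the control arrays, a change of -1.60 (SE 0.08), with -1.16 in H1693 and -1.07 in H1993. TAF10, a subunit of TFIID, changed by -1.47, -1.19 and -1.83 in the 3 lines and PRPS2, which makes phosphoribosyl pyrophosphate, by -1.28, -1.21 and -1.62. TOP2A, the topoisomerase of dividing cells, changed by -0.94, -1.16 and -1.04, CRLF3 by -0.93, -1.26 and -1.13 and GTSE1, a microtubule-associated protein of G2, by -0.91, -0.91 and -0.85. Their H1650 probe sets were not alike: those of FOXM1 changed by -1.82 to -1.28, but those of PRPS2 by -2.49 and -0.07 and those of TOP2A by -2.19 to -0.11.

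The change in H1650 was set against the mean change of the other lines in one fit. It differed for 7773 of 15750 genes (49.4%), 4371 towards higher and 3402 towards lower in H1650. The smallest p-values belonged to IST1, SNHG29, AKAP8L, SLC1A5, RTN3 and AP2S1, all lower in H1650. SLC1A5, a glutamine transporter, was at 8.71 and 8.89 in the knockdown and 11.31 and 11.05 in the control arrays of H1650, a change of -2.38, while it changed by 0.71 in H1693 and 0.89 in H1993. The 7 probe sets of IST1, an ESCRT-III-associated protein, changed by -4.49 to -0.25 in H1650, and the gene mean changed by 0.31 and 0.15 in the other lines. RTN3 changed by -1.84, on sets from -2.86 to -0.09, and AP2S1, a clathrin adaptor subunit, by -2.39 in H1650, with changes of at most 0.22 elsewhere.

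Interferon-stimulated genes are induced when interferon binds its receptors on the cell surface, and many of their products block viral RNA or proteins. Of 56 genes on a list of them, 53 were measured, 30 with several probe sets. By the agreement rule 15 of these rose (50% against 22.8% of all genes), 1 fell (3.33% against 10.7%) and the sets of 14 disagreed. Every probe set was called higher in 12. The median change of the 53 was 0.78, against 0.09 for all genes, and 0.20 in H1693 and 0.46 in H1993. By the gene mean alone, 23 and 33 members were called higher in H1693 and H1993 (against 17.1% and 17.3% of all genes). Lower calls there were 2 and 1 (against 16.1% and 16.2%). Control replicate 2 was below control replicate 1 in 21 of the 53.

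RSAD2, an antiviral enzyme also called viperin, was at 9.62 and 9.71 in the knockdown and 7.65 and 7.94 in the control arrays, which is a change of 1.87 (SE 0.11, limma adjusted p = 4.61e-07), with 1.06 in H1993. In H1693 it was below the signal minimum, between 4.29 and 4.82. OAS1, which makes the 2-5A activator of RNase L, changed by 1.35 and OAS2 by 1.17. RIGI, a sensor of viral RNA, was at 10.97 and 10.91 against 9.87 and 9.88 (change 1.07), SAMD9L changed by 1.22 and IFITM1, which blocks viral entry, by 1.06. CMPK2 changed by 1.02, IFIT5 by 0.99, MX2 by 0.86, IFI27 by 0.37 and TRIM25 by 0.35. The sets of CMPK2 ran from 0.08 to 2.43 and those of OAS2 from 0.24 to 2.42, so agreement in direction again covered a wide range of sizes.

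BST2, or tetherin, was the exception among the agreeing members. It was at 7.30 and 8.02 in the knockdown and 10.11 and 9.75 in the control arrays, a change of -2.27 (SE 0.19), and its 4 probe sets changed by -3.27 to -0.19. In H1693 and H1993 it lay between 3.84 and 4.11, below the signal minimum, so no change could be read there. Among members with 1 probe set, chosen here after their values were seen, the chemokine CXCL10 was at 8.42 and 8.40 against 5.51 and 5.42 (change 2.94) and changed by -0.06 and 0.08 in the other lines. ISG15, a ubiquitin-like modifier, was at 13.69 and 13.77 against 13.10 and 13.16, a change of 0.60 that was close to its 0.58 in H1693 and 0.68 in H1993. MX1 changed by 1.25 and IFIT1 by 1.67, and PARP12 by -1.06. IFIT2, IFI35 and IRF1 are members whose sets disagreed, with changes from -1.52 to 0.68, from -1.09 to 0.62 and from -0.78 to 0.71.

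**Figure D4:**
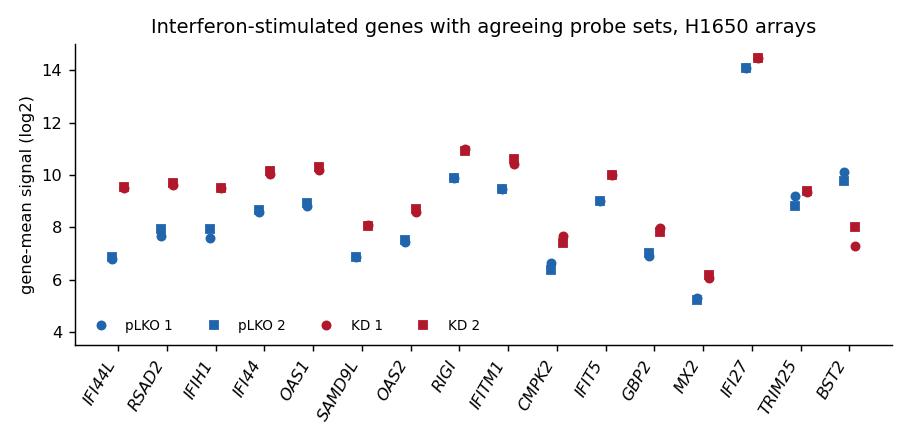
Gene-mean signal (log2, vertical axis) on each H1650 array is plotted for the 16 interferon-stimulated genes with agreeing probe sets and a called gene mean, in order of their change, with blue for pLKO, red for knockdown, circles for replicate 1 and squares for replicate 2. Both knockdown arrays are above both control arrays for the 15 genes from IFI44L to TRIM25 and below them for BST2.

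Promoter sequences are shown for the 3 list members with the largest gene-mean rises among those with every probe set called higher. Each of the 3 holds the letters bound by interferon-activated factors. The windows run from 250 bases before to 50 after the RefSeq start site (GRCh38.p14) and are written 5' to 3' on the gene's strand. Capitals mark copies of GAAANNGAA, the core of the interferon-stimulated response element (ISRE), searched on both strands, with N for any base and overlapping copies counted singly. IFI44L lies at chr1:78620198-78620497 on the plus strand, RSAD2 at chr2:6865635-6865934 on the plus strand and IFIH1 at chr2:162318635-162318934 on the minus strand.
IFI44L: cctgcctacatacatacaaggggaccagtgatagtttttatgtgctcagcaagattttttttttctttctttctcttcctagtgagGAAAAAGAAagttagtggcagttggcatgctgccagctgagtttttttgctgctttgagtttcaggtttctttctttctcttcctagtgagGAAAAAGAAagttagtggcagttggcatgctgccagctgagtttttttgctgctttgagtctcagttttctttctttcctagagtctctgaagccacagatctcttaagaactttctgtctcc
RSAD2: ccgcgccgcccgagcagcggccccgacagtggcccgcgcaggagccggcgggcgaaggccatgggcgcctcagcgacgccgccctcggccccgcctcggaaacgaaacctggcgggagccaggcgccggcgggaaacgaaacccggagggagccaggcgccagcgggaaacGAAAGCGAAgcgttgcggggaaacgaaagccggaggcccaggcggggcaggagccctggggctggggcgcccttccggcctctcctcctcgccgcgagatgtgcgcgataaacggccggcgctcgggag
IFIH1: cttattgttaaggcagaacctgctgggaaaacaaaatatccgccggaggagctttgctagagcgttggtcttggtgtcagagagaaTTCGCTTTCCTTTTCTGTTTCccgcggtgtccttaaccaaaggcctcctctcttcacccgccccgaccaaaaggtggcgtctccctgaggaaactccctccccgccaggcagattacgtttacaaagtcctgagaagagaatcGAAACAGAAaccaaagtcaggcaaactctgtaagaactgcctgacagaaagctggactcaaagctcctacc
The IFI44L window has 2 copies, 164 and 73 bases before the start, the RSAD2 window 1 copy, 79 bases before it, and the IFIH1 window 4 copies, 3 of them overlapping on the opposite strand.

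The ISRE core was found in 8.29% of all 27305 promoters and in 6.39% of the 12622 promoters of tested genes. It was in 29 of the 43 list members with a promoter in the table (67.4%), and in 7 of the 12 called higher (58.3%). Over all genes, it was in 7.74% of those called higher and 4.74% of those called lower. A match says only that the letters are present.

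Targets of NF-kB, the inflammatory transcription factor, and cytokine genes had 23 of 26 members measured and 13 with several sets, of which 6 were called higher (46.2% against 22.8%) and 1 lower (7.69% against 10.7%). The median change was 0.39. TNFAIP3, a feedback inhibitor of NF-kB also called A20, was at 9.86 and 9.90 in the knockdown and 8.28 and 8.41 in the control arrays, which is a change of 1.54 (SE 0.08, limma adjusted p = 2.65e-07), with 0.24 and 0.42 in H1693 and H1993. The neutrophil chemokine CXCL5 was at 8.14 and 7.97 against 6.64 and 6.88 (change 1.29) and CXCL2 at 9.94 and 9.97 against 8.95 and 9.0 (change 0.98). CCL5, a T-cell chemokine, was lower, at 7.63 and 7.88 against 9.32 and 9.19 (change -1.51, sets from -2.04 to -0.79). The sets of IL6 disagreed, from -2.27 to 0.86, and so did those of CXCL8, from -0.08 to 2.27.

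Antigen presentation genes display peptides to T cells. All 17 measured members had several sets: 5 were called higher (29.4% against 22.8% of all genes), 2 lower (11.8% against 10.7%) and 10 disagreed, shares near those of all genes. With a signal minimum of 6, NLRC5 and CALR were not called by this rule. NLRC5, the transactivator of MHC class I genes, was at 8.01 and 8.15 against 6.46 and 6.49, a change of 1.61 (SE 0.09), and PSMB9, an immunoproteasome subunit, at 9.75 and 9.78 against 8.96 and 9.03 (0.77). All 8 sets of B2M, the MHC class I light chain, were higher, with a gene-mean change of 0.42. PSMB8, the partner subunit of PSMB9, was at 7.49 and 8.21 against 9.51 in both control arrays (change -1.66), and CALR, a chaperone of class I loading, changed by -1.18 on sets of -2.30 and -0.06.

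Mitotic genes, which are switched on in G2 and M phase, were mostly called lower in the other lines. By the gene mean alone, all 46 measured were called lower in H1693 (against 16.1% of all genes). In H1993, 43 were called lower (against 16.2%) and 1 higher (against 17.3%). In H1650, 30 had several sets: 8 were called lower (26.7% against 10.7%), 3 higher (10% against 22.8%) and 18 disagreed, with a median change of -0.12 against -0.91 and -0.59. PRC1, the central-spindle crosslinker, was at 6.93 and 6.71 against 8.70 and 8.62 (change -1.84, SE 0.08), but its sets ran from -4.26 to -0.13. CDC25B, the phosphatase that activates CDK1, was lower in all 5 sets, with changes of -3.13 to -1.21. KIF2C, a microtubule depolymerase, changed by -0.95. DLGAP5, KIF23 and ESPL1 were called higher in H1650, by 0.40, 0.34 and 0.30, and were lower in both other lines, with changes of -1.23 to -0.63. With only the H1650 arrays in the fit, KIF23 and ESPL1 were not called. The 2 sets of CDK1 disagreed around a change of 0.03, against -1.03 in H1693 and -0.43 in H1993.

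DNA replication genes gave 9 lower calls (27.3% against 10.7%), 1 higher (3.03% against 22.8%) and 20 disagreements among 33 members with several sets, and a median change of -0.37 over the 47 measured. By the gene mean alone, all 47 were called lower in H1693 (against 16.1% of all genes) and 26 in H1993 (against 16.2%). MCM2, a subunit of the replicative helicase, was at 8.77 and 8.98 against 11.04 and 11.03 (change -2.16, SE 0.07), with -0.90 in H1693 and -0.41 in H1993, and its 4 sets changed by -4.09 to -1.16. POLA2, a subunit of DNA polymerase alpha, changed by -2.31, MCM3 by -1.02 and GINS4 by -0.92. POLD2, a subunit of polymerase delta, fell by similar amounts in the 3 lines, with changes of -0.34, -0.36 and -0.29.

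The letters of motifs known from cell cycle promoters were counted in the same windows. The cell cycle homology region TTTGAA was in 15.4% of all promoters and 10.9% of those of tested genes, in 25 of 39 mitotic members with a promoter (64.1%) and in 5 of the 7 called lower, but also in all 3 called higher. The E2F motif TTTCCCGC was in 1.66% of all promoters and 2.35% of those of tested genes, in 10 of 40 replication members (25%) and in 3 of the 8 called lower. The cAMP response element TGACGTCA was in 1.98% of all promoters, in 2.84% of those of tested genes, and in 2.95% and 3.82% of those of genes called higher and lower.

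DNA repair lists were read as well, and no drug treatment is named in the labels of these arrays. Of the DNA damage signalling and recombination genes, 39 of 44 were measured and 23 had several sets: 4 were called higher (17.4% against 22.8% of all genes), 1 lower (4.35% against 10.7%) and 15 disagreed. CLSPN, the adaptor of ATR signalling, was at 7.17 and 7.22 against 8.20 and 8.08 (change -0.95), with -1.09 in H1693 and 0.07 in H1993. FANCF and FANCM, of the Fanconi anemia pathway, changed by 0.55 and 0.49. FANCM did not pass without control replicate 1 (0.35, limma adjusted p = 0.0502), and with a signal minimum of 6 it was not called by the agreement rule. MRE11, a nuclease of double-strand breaks, changed by 0.31 on 3 sets, by 0.21 and without a call when read by the median of the sets (limma adjusted p = 0.213), and by -0.25 when a dimmer set below the signal minimum was added.

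Excision, mismatch and end-joining repair genes gave 3 higher calls (9.09% against 22.8% of all genes), 6 lower (18.2% against 10.7%) and 21 disagreements among 33 members with several sets, with a median change of -0.10 over the 40 measured. UNG, which removes uracil from DNA, was at 7.99 and 8.57 against 10.97 and 10.95, a change of -2.68 (SE 0.14, limma adjusted p = 2.26e-07), with -0.83 in H1693 and 0.09 in H1993. XRCC4, a scaffold of end joining, rose in all 4 sets, from 7.82 and 8.15 to 8.99 and 8.81 (change 0.91), while it changed by -0.87 and -0.27 in the other lines. DDB1, of the UV damage sensor, changed by -0.89 and ERCC2, a helicase of nucleotide excision repair, by -0.66, each with 1 set at -0.07. By the median of its sets ERCC2 was not called (-0.07, limma adjusted p = 0.453). ERCC1, a partner of the nuclease that cuts out platinum adducts, changed by -0.32 on sets of -0.59 and -0.05. Of the drug and platinum transporters and metallothioneins, 19 were measured and 16 had several sets: 4 were called higher (25%, near the 22.8% of all genes), 11 disagreed and 1 agreed without a call. The export pumps ABCC2, ABCG2 and ABCC5 changed by 0.69, 0.56 and 0.51, and MT2A, which binds metals, by 0.27, a call lost without knockdown replicate 2 (0.26, limma adjusted p = 0.0503) and without control replicate 2 (0.25, limma adjusted p = 0.0577).

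Partners of the MARK kinases had 22 of 23 members measured and 15 with several sets, of which 4 were called higher (26.7%, near the 22.8% of all genes), 1 lower (6.67% against 10.7%) and 9 disagreed. MAP2, a dendritic microtubule-associated protein and MARK substrate, was at 8.24 and 8.37 in the knockdown against 6.99 and 7.18 (change 1.22, SE 0.09), with 0.22 in H1693 and 1.59 in H1993. PARD6B, a PAR polarity protein, was at 8.77 and 8.66 against 7.69 and 7.86 (0.94). PRKCZ, the atypical protein kinase C that phosphorylates MARK2, was lower in all 3 sets, at 8.80 and 8.67 against 9.76 and 9.60 (change -0.95), and changed by 0.69 in H1693 and 0.15 in H1993. The 14-3-3 proteins YWHAH and YWHAG changed by 0.42 and 0.39.

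Among tubulins and microtubule regulators 2 of 24 members with several sets were called higher (8.33% against 22.8% of all genes), 3 lower (12.5% against 10.7%) and 15 disagreed. TUBB2A was at 13.65 and 13.48 against 12.53 and 12.54 (change 1.03) and TUBA1A at 13.03 and 12.95 against 11.97 and 12.19 (0.91), and both were also higher in H1993, by 1.58 and 2.35. TUBB was lower in all 6 sets, with changes of -3.22 to -0.22. MAP7D1 changed by -1.90 on sets from -2.93 to -0.03, and its brightest set alone gave no call (-0.027, limma adjusted p = 0.762). CKAP5, a microtubule polymerase, changed by -1.19 on sets of -2.08 and -0.30. Actin and cytoskeleton genes gave 7 lower calls (26.9% against 10.7% of all genes), 17 disagreements and 2 agreements without a call among 26 members. CAPG, an actin-capping protein, was lower in all 4 sets, at 10.35 and 10.66 against 12.59 and 12.42 (change -2.0), and ZYX, a focal adhesion protein, changed by -1.63. MYH9 and FSCN1 changed by -1.70 and -1.43 on sets that ran from -4.25 to -0.15 and from -3.99 to -0.07, and read by the median of its sets FSCN1 was not called (-0.26, limma adjusted p = 0.154).

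Of the epithelial genes, 21 had several sets: 4 were called higher (19% against 22.8% of all genes), 5 lower (23.8% against 10.7%) and 12 disagreed. CLDN4, a tight-junction claudin, was at 9.31 and 9.01 against 10.83 and 10.43 (change -1.47), while it changed by 1.07 in H1693 and 0.44 in H1993. ELF3, an epithelial ETS factor, changed by -1.80 on sets from -2.60 to -0.19, and OVOL2 by -0.86 on sets of -1.41 and -0.30. DSC2, a desmosomal cadherin, was higher in all 5 sets (0.99), OCLN by 0.71 and EPCAM by 0.51. CDH1, E-cadherin, had sets of -0.43 and 0.03. Hypoxia and glycolysis genes gave 2 higher calls (9.09% against 22.8% of all genes), 4 lower (18.2% against 10.7%) and 16 disagreements among 22 members. ENO1, the glycolytic enolase, was at 11.92 and 12.19 against 14.15 and 14.03 (change -2.04, sets -2.12 and -1.95), PKM changed by -1.55, ALDOA by -1.30 and HK1 by -1.0. In ALDOA and HK1 the set that changed least moved by -0.14 and -0.06.

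**Figure D5:**
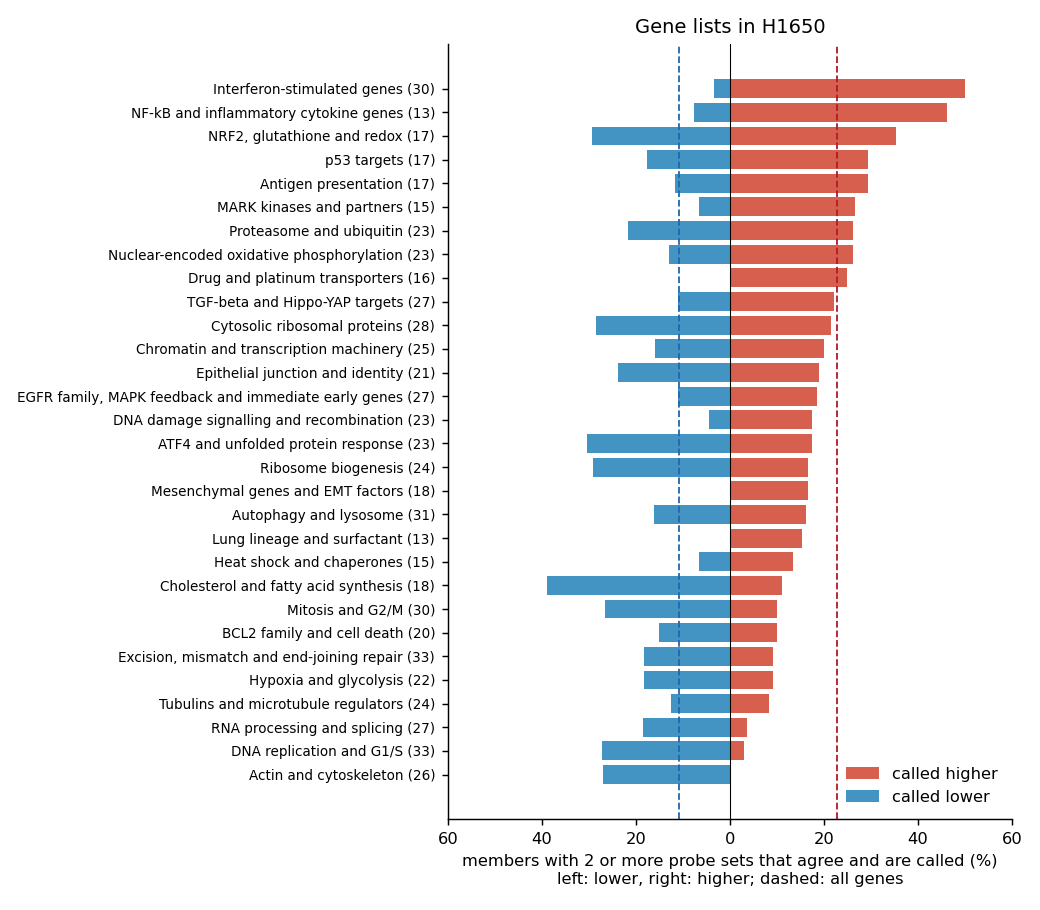
For each gene list with 10 or more members that have several probe sets (number in brackets), bars to the right give the percentage with agreeing sets called higher in H1650 and bars to the left the percentage called lower. Dashed lines mark all genes, 22.8% higher and 10.7% lower; interferon-stimulated genes reach 50% higher, and DNA replication genes 27.3% lower.

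The labelled cell type was checked with the same arrays. The gene means of EPCAM were between 12.18 and 12.93 and those of KRT7, KRT18 and KRT19, epithelial keratins, between 13.77 and 14.67 on the 4 H1650 arrays. Of the leukocyte markers 9 of 13 reached the minimum, and lay between 4.76 and 9.12. Of the 5 with several sets 1, CD14, was called lower (20% against 10.7% of all genes), with a change of -0.51. Of 8 endothelial markers 6 had several sets: TEK was called higher (16.7% against 22.8%) and EGFL7 and CDH5 lower (33.3% against 10.7%). Of 8 measured fibroblast markers 5 had several sets, and POSTN was called higher (20% against 22.8%). These lists are too short for their shares to be read as results. The part of other cells in the results was not tested. CDKN2A was between 6.69 and 7.21 in H1650. The sets of EGFR disagreed, from -2.84 to 0.93, as did those of MET, from -2.28 to 0.45.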

How the data were processed

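Total RNA of the 4 H1650 arrays and the 8 arrays of the other lines was labelled as biotinylated cRNA and hybridised to Affymetrix PrimeView arrays. Values in the authors' deposited table are log2 signals. The submitters' processing notes name RMA and Affymetrix Expression Console, without versions. RMA brings arrays to one distribution, so a loss of signal in some probe sets can raise others. Array medians ran from 7.13 to 7.32, and replicate arrays correlated at 0.995 to 0.998, with at most 0.0992% identical values.

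Of 49395 probe sets, 44994 had 1 gene symbol, 1832 several and 2569 none; 44988 were used after removing controls, and 44961 matched a RefSeq gene ID (18132 genes). Probe sets with a mean of at least 5 over the H1650 arrays were tested (36950). A linear model with 6 group means took in all 12 arrays (limma 3.58.1, R 4.3.3; 6 residual degrees of freedom, prior 3.90 for probe sets and 4.07 for genes), two-sided, with Benjamini-Hochberg adjustment and a threshold of 0.05. SE is that of the fit. Gene means average a gene's tested probe sets. The scripts were tested on simulated data.

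The members, the 35 gene lists and the motifs were chosen with earlier results of these data known. Named genes are MARK1 to MARK4; the 12 largest rises and falls by the smallest probe-set change; the 6 widest disagreements; the 6 largest rises and falls called in all 3 lines; the 6 smallest p-values for the difference between lines; up to 4 called members of each list described; and line identity genes. Others are named after their values were seen. Alternatives changed the arrays, weights, replicate block, signal minimum, normalisation and the probe sets per gene. Promoters are from RefSeq (GRCh38.p14).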

Additional observations from a re-analysis of the deposited data

Results flagged for a closer look

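Each result listed here differed between H1650 and the mean of H1693 and H1993 (limma, adjusted p under 0.05). The value given for a gene is its change in H1650 minus its mean change in the other lines (log2), tested in one fit over the 12 arrays. Of 101 named genes 84 differed, 29 towards higher and 55 towards lower in H1650. Most named genes were chosen for their change in H1650, so this count is a description. RNA integrity differs between the groups in H1650 and not in the other lines, so it and the hairpin cannot be told apart in these differences.

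Above 1 towards higher stood IFI16 (1.85), IFI44L (1.76), NFE2L3 (1.59), MARK2 (1.52), ACSL6 (1.52), RBM11 (1.5), IFIH1 (1.49), XRCC4 (1.48), CXCL5 (1.41), ODAPH (1.41), BPGM (1.23), TNFAIP3 (1.20), RSAD2 (1.14) and SPRR2D (1.09). MARK2 is among them because it fell in the other lines. IFI16, ACSL6 and CXCL5 were below the signal minimum of 5 on every array of both other lines, as was BST2, and RSAD2 and TRIM29 on every array of H1693, so for these the comparison is with signals near background. Smaller positive differences were seen for DPY19L1 (0.93), FANCM (0.90), ANKRA2 (0.89), NLRC5 (0.84), PARD6B (0.63), DSC2 (0.62), MRE11 (0.60), FANCF (0.59), CDKN2A (0.59), CXCL2 (0.51), YWHAH (0.49), PSMB9 (0.39), MAP2 (0.32), ABCC2 (0.28) and CRLF3 (0.27).

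Smaller negative differences, down to -1, were seen for EGFR (-0.36), KIF2C (-0.44), CLSPN (-0.44), MCM3 (-0.46), FOXM1 (-0.48), GBP2 (-0.71), FSCN1 (-0.73), EEF1A1 (-0.75), OVOL2 (-0.77), CKAP5 (-0.78), ERCC2 (-0.91), DDB1 (-0.94), MET (-0.95) and CDC25B (-1.0). Those between -1 and -2 were CALR (-1.17), PRC1 (-1.18), ALDOA (-1.23), HIF1A (-1.24), STARD7 (-1.27), PRKCZ (-1.37), TUBB (-1.40), CCL5 (-1.41), HK1 (-1.43), PKM (-1.49), MCM2 (-1.50), ZYX (-1.61), POLA2 (-1.64), GET3 (-1.76), MYH9 (-1.89), IFRD2 (-1.89), RTN3 (-1.90) and ENO1 (-1.91). Below -2 stood CAPG (-2.11), ELF3 (-2.19), ATP5F1A (-2.21), CLDN4 (-2.23), PSMB8 (-2.29), UNG (-2.31), MAP7D1 (-2.34), BST2 (-2.38), PHB2 (-2.38), F3 (-2.49), AP2S1 (-2.52), CRABP2 (-2.53), HSPA5 (-2.56), TRIM29 (-2.64), GPAA1 (-2.82), IST1 (-3.02), MAD1L1 (-3.03), STIP1 (-3.03), SLC1A5 (-3.18), EEF1A2 (-3.21), ERI3 (-3.27), AKAP8L (-3.28) and SNHG29 (-3.33). Genes whose probe sets disagree in H1650, such as ATP5F1A, EEF1A1, HSPA5, STARD7, HIF1A and F3, are in these lists by their gene mean.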

How the results depend on the processing

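The counts over all probe sets and genes stayed within 1.5 times the values reported, except as follows. With only the H1650 arrays in the fit, 1359 genes had probe sets called both ways in place of 2094. At 3 or more probe sets per gene, 373 genes were higher and 204 lower, since fewer genes qualify. Of the 3249 agreeing genes called by the gene mean, between 67.96% (signal minimum of 7) and 98.25% (crossed replicate block) kept their call across the alternatives with 2 or more sets. Genes without a value count as not kept, and at a signal minimum of 7 only 2875 of the 3249 had a value.

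Leaving out each H1650 array in turn gave 9416 to 10452 higher and 7294 to 8182 lower probe sets, 707 to 893 higher and 407 to 493 lower genes with every set called, and 1964 to 2039 higher and 959 to 1055 lower gene means. It gave 1563 to 1927 genes called both ways, and 3830 to 4060 higher and 3083 to 3441 lower genes against the other lines. The lone array of a group is then assumed to vary like the other groups. The change of MARK2 ran from -0.56 (without knockdown replicate 1) to -0.019 (without knockdown replicate 2).

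With the replicate number as a block, MARK2 still changed by -0.29 but passed (limma adjusted p = 0.0423); no other count moved past 1.5 times and no other named gene changed its call. Same-numbered H1650 arrays deviated with a correlation of -0.12, and the numbers were not taken to pair the samples. The crossed pairing, chosen after seeing the data, gave 1077 higher and 499 lower genes with every set called and 2194 genes called both ways.

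Some list counts moved by more than 1.5 times. With only the H1650 arrays, higher calls became 1 in place of 3 for mitosis, 0 in place of 1 for replication (RRM2 lost), 1 in place of 2 for hypoxia (PDK1 lost) and 1 in place of 0 for actin genes (LCP1 gained). With a signal minimum of 6, lower calls became 2 in place of 1 for MARK partners (MAP4 gained) and 1 in place of 2 for antigen presentation (CALR lost), and LCP1 was again called higher.

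Directions turned where the choice of probe set changed. With a gene read by its brightest probe set, the changes became 0.30 for ATP5F1A, 0.0094 for EEF1A1, 0.30 for STARD7, 0.36 for HIF1A, 0.58 for F3, 0.22 for EGFR and 0.45 for MET, and 9 of 100 named genes lost their call. With the median of the sets, STARD7 became 0.20, and FSCN1, ERCC2 and MRE11 lost their call. With a signal minimum of 7, MET became 0.089. With no minimum, and with the minimum taken over 12 arrays, MRE11 became -0.25. MARK2 has no value at a minimum of 6 or 7, and the comparison with the other lines none with only the H1650 arrays. Dim signals compress differences, and the number of arrays limits the precision.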
